A study of Mus musculus with 5 samples.

Results

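The 9 mouse genes that write, copy and remove DNA methylation were followed by ribosome profiling (RIBO-seq) in mESCs, that is mouse embryonic stem cells, the pluripotent cells of the early embryo kept in culture. They were chosen by name: the methyltransferases Dnmt1, Dnmt3a and Dnmt3b, the cofactors Dnmt3l and Uhrf1, the dioxygenases Tet1, Tet2 and Tet3, and the glycosylase Tdg, 9 of 21849 protein-coding genes with a deposited transcript. Each gene is described by its protein-coding transcript with the highest mean level over the 5 libraries, out of 58 protein-coding transcripts that the 9 genes hold. A library contains the RNA fragments that ribosomes protected from digestion by RNase I (1.3 U, 45 min). In standard RIBO-seq (3 libraries), ribosomes were pelleted through 30% sucrose. In AHARIBO RIBO-seq (2 libraries), growing peptide chains with AHA, an azide-bearing methionine analogue, were coupled in the lysate to DBCO-PEG4-biotin (50 µM), and the ribosomes holding them were collected on magnetic beads. All cells were grown with LIF (1000 units/ml) and 10% serum, and had been treated with cycloheximide, an inhibitor of elongation. The study's methods name 46C as its mESC line, and the labels call all 5 libraries untreated, and the methods restate no AHA dose for RIBO-seq. Libraries are described as biological replicates, and standard RIBO-seq as made from the input of the pulldown. Which standard and AHARIBO libraries share a lysate is not given in the sources used here, so that p-values measure the spread between these libraries. Protected fragments of 25 to 35 nt were sequenced.

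DNA methylation in mammals is set by Dnmt3a and Dnmt3b, which methylate new sites with the help of the inactive relative Dnmt3l, and it is copied at replication by Dnmt1, which Uhrf1 brings to hemimethylated DNA. Tet enzymes oxidise 5-methylcytosine, and Tdg cuts out the oxidised bases 5-formylcytosine and 5-carboxylcytosine, after which base excision repair restores cytosine. In mESCs, Tet1 and Tet2 are the known main Tet enzymes, and Dnmt3l is a gene of early embryonic and germ cells.

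After removal of duplicates the libraries held between 6403651 and 11150527 reads, and 3 reads correspond to 0.262 to 0.476 CPM (reads scaled to a common library size). All 9 pluripotency markers were read in every library, with a summed level of 1428 to 1540.3 CPM in standard and 1267 to 1393 CPM in AHARIBO RIBO-seq, and 3 of them were lower in AHARIBO RIBO-seq by edgeR's quasi-likelihood test (Sox2, adjusted p = 0.013, Klf4, adjusted p = 0.0084, and Utf1, adjusted p = 0.0048), against 2.53% of all genes. The summed level of 5 fibroblast markers was 5.63 to 6.50 CPM in standard and 5.77 to 5.89 CPM in AHARIBO RIBO-seq. The 5 neural markers summed to 54.1 to 54.4 CPM and to 46.6 to 49.4 CPM, most of it from Tubb3. The sums of 4 endoderm markers (2.87 to 3.97 and 2.01 to 3.20 CPM) and of 3 mesoderm markers (1.66 to 2.38 and 1.90 to 2.19 CPM) overlapped between the methods. Col1a2, Postn, Neurog2, Afp, T and Mixl1 stayed below 1 CPM in every library. The part of these marker levels in the results was not tested, and in bulk lysates fewer cells of a type and less RNA per cell cannot be told apart.

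Footprints on the 9 genes differed widely in density. Levels were compared between genes as CPM per kb of coding sequence, since footprints lie mainly in coding sequence. Dnmt3l was the most densely read, with a mean over the 5 libraries of 101 CPM per kb (range 90.0 to 111), followed by Uhrf1 with 84.7 (77.5 to 88.6). Dnmt1 had 36.4 CPM per kb (35.5 to 37.3), Dnmt3b 29.3 (28.4 to 30.0) and Tdg 28.5 (26.1 to 30.5). Tet1 had 15.9 CPM per kb (12.8 to 20.3), Tet2 13.8 (12.2 to 16.8), Dnmt3a 10.6 (10.2 to 11.1) and Tet3 0.849 (0.604 to 1.20). Only the ranges of Dnmt3b and Tdg, and those of Tet1 and Tet2, overlapped among neighbours in this order, and in each pair the first was above the second in 4 of 5 libraries. Across 12361 protein-coding genes with at least 1 CPM in a library, the median was 6.90 CPM per kb. Dnmt3l lay at percentile 96.0 of these genes, Dnmt1 at 86.4, Dnmt3a at 61.1 and Tet3 at 9.76. Per kb of whole transcript, Dnmt3l had a mean of 77.5 CPM, Uhrf1 55.5, Dnmt1 33.0, Dnmt3b 17.6, Dnmt3a 3.00, Tet1 6.79 and Tet3 0.390, so that ratios between genes depend on the length used.

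**Figure D1:**
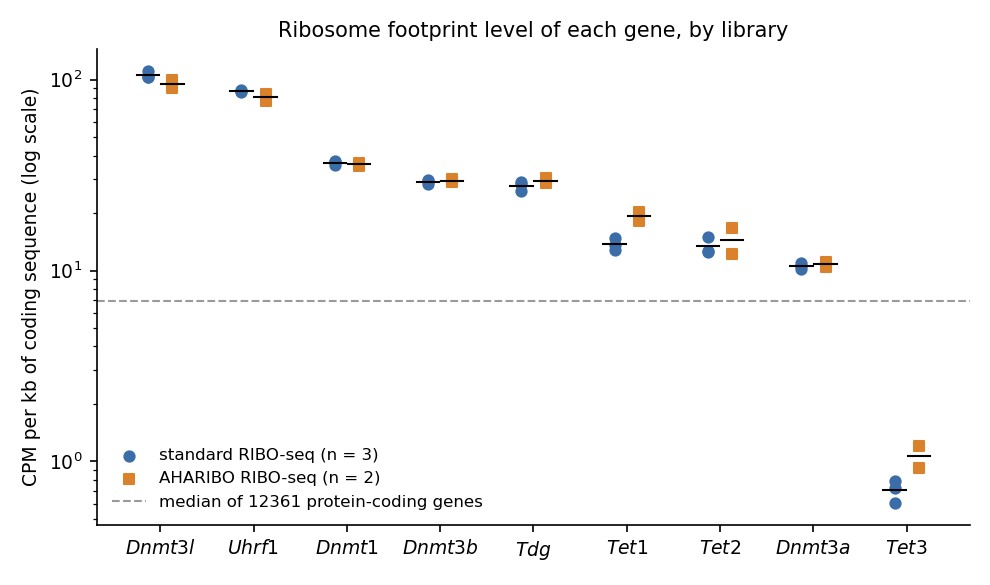
Level of each gene as CPM per kb of coding sequence (log scale), with blue circles for the 3 standard and orange squares for the 2 AHARIBO RIBO-seq libraries, black lines for group means and a dashed line at 6.90, the median of 12361 genes. Dnmt3l and Uhrf1 lie highest, Tet3 lies below the median, and the groups of Tet1 are apart.

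The comparison between methods asks whether ribosomes collected through their nascent peptide carry the same footprints as all ribosomes. Of the 9 genes, only Tet1 passed the test (1 of 9, 2 at an unadjusted p under 0.05, with Tet3), and it was higher in AHARIBO RIBO-seq, while 5.12% of the 12361 genes passed the same test (2.59% higher), and 19.4% at an unadjusted p under 0.05. The test was edgeR's quasi-likelihood test with Benjamini-Hochberg adjustment over all 66972 transcripts tested. Both AHARIBO libraries lay outside the range of the standard libraries for 4 of the 9 genes, 2 above (Tet1 and Tet3) and 2 below (Dnmt3l and Uhrf1), against 34.3% of all genes. The median log2 fold change was 0.04 over the 9 genes and 0.00 over all genes.

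**Figure D2:**
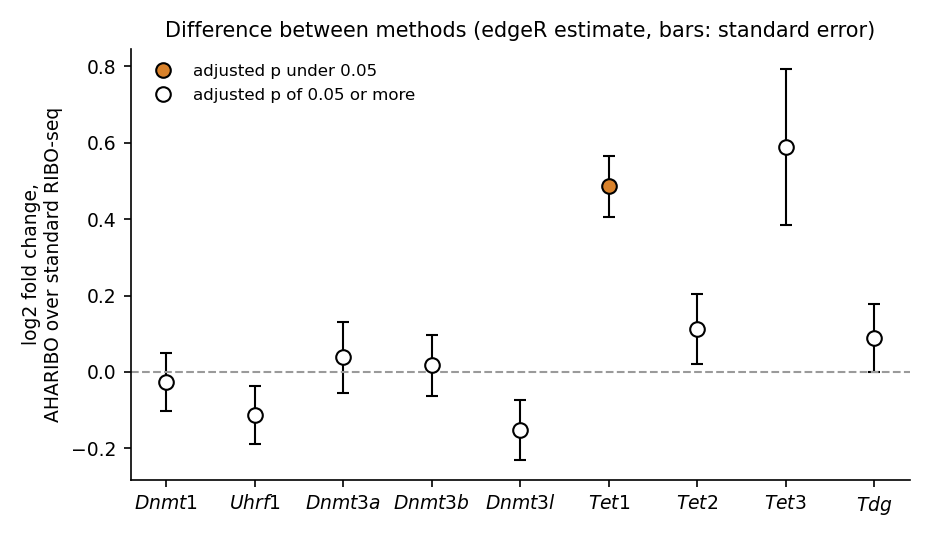
Log2 fold change of AHARIBO over standard RIBO-seq for each gene, as estimated by edgeR with its standard error (n = 2 and 3 libraries). Only Tet1, at 0.49, is filled as past an adjusted p of 0.05, and Tet3 has the largest value and the largest error.

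Among the genes that copy methylation, Dnmt1 was read at nearly the same level by both methods. Its main transcript (ENSMUST00000004202.16, minus strand of chromosome 9 from 20907209 to 20952979, GRCm38) codes for 1620 amino acids. Dnmt1 had 180.5, 174 and 181 CPM in the standard libraries 1 to 3 and 173 and 178 CPM in the AHARIBO libraries 1 and 2, so that the groups overlapped. The log2 fold change was -0.03 with a standard error of 0.08 (adjusted p = 0.90, edgeR), and the approximate 95% interval ran from -0.17 to 0.12.

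Dnmt1 is annotated with different starts, and the oocyte form is known to begin at a downstream methionine of the somatic form. The sequences of both starts are shown because a shorter annotated form (ENSMUST00000177754.8) begins at the second methionine codon of the main transcript, codon 119, and then differs from it by 3 missing nt. Capitals mark in-frame ATG codons.
Dnmt1 main transcript, codons 1 to 20: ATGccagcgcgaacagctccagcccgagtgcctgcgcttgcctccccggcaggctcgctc
Dnmt1 main transcript, codons 115 to 134: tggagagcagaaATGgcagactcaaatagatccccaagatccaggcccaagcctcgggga
The main transcript held 121, 93 and 76 reads more than the shorter form in the standard libraries and 92 and 93 reads more in the AHARIBO libraries. These net differences were 5.91% to 7.51% of the main transcript's reads in standard and 4.66% to 5.22% in AHARIBO RIBO-seq, and the groups did not overlap. They arise from 303 windows of 30 nt found only in the main transcript, 111 of them inside its coding sequence, less the reads of 184 windows found only in the shorter form. The same kind of net difference between annotated forms went different ways in other genes. For Dnmt3a, the main transcript less ENSMUST00000172689.7 came to 5.32% to 8.95% of its reads in standard and 12.7% to 13.6% in AHARIBO RIBO-seq, from 7489 windows of which 626 are coding. Less ENSMUST00000111186.7, with the same number of coding windows among 4404, it came to 5.32% to 7.78% and 8.38% to 10.8%. For Dnmt3b, the main transcript less ENSMUST00000088976.11 came to 3.14% to 3.82% and 5.41% to 5.73%, but less ENSMUST00000109771.1, which lacks none of its coding windows, to 10.1% to 11.6% and 7.86% to 8.12%. For Tet1, the main transcript less ENSMUST00000050826.13 was lower with AHARIBO, at 7.21% to 8.04% and 5.65% to 6.54%, as was the main transcript of Tdg less ENSMUST00000092266.10, with up to 15.6% in standard and up to 10.2% in AHARIBO RIBO-seq. Groups without overlap are common in such shares, since they were found for 33.5% of 5622 other genes (highest less second highest protein-coding transcript). All pairs shown here were without overlap, but they were not picked by that rule. Only the pairs of Tet1 and Tdg take the second highest transcript, and Uhrf1, Dnmt3l, Tet2 and Tet3 are not shown. The 33.5% is therefore no measure for the pairs shown.

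Uhrf1, which recognises hemimethylated DNA and recruits Dnmt1, was somewhat lower in both AHARIBO libraries without passing the test. Its main transcript (ENSMUST00000001258.14, plus strand of chromosome 17 from 56303321 to 56323486) had 206, 201 and 208 CPM in the standard and 182 and 198 CPM in the AHARIBO libraries. Both AHARIBO values lay below all standard values. The log2 fold change was -0.11 with a standard error of 0.08 (adjusted p = 0.45, edgeR), and it was -0.05 without AHARIBO replicate 1, -0.17 without AHARIBO replicate 2 and -0.06 with duplicates kept. Within a library, which needs no scaling, the density of Uhrf1 was 2.36, 2.40 and 2.38 times that of Dnmt1 in the standard and 2.18 and 2.30 times in the AHARIBO libraries. The log2 ratio of the 2 genes fell short of the threshold at a difference of -0.09 (exact two-sided permutation test, p = 0.1, 0.15 after adjustment over 3 ratios), and 0.1 is the smallest p that 10 splits of 2 against 3 libraries allow. This difference was -0.03 with duplicates kept and -0.05 without AHARIBO replicate 1. Of the windows of 30 nt along it, 30.1% also occur in other genes, mainly Gm5648 (27.0%), so that some of its reads cannot be assigned with certainty.

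The genes that methylate new sites did not pass the test. Dnmt3b, a de novo methyltransferase of the early embryo, had 73.3, 77.4 and 75.7 CPM on its main transcript (ENSMUST00000056495.13, plus strand of chromosome 2 from 153649454 to 153687726) in the standard and 77.6 and 75.0 CPM in the AHARIBO libraries. These values overlapped, with a log2 difference between the methods of 0.02 ± 0.08 (SE, adjusted p = 0.94, edgeR). Dnmt3b shares 15.8% of its windows with Dnmt3c, its germline duplicate, and 37.0% of its coding windows occur in more than 10 annotated transcripts. STAR, run by the authors at its defaults, discards a read that matches more than 10 places, so that the level of Dnmt3b may be underestimated. No other of the 9 genes had more than 1.29% of such coding windows.

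Dnmt3a had 28.8, 27.7 and 29.8 CPM on its main transcript (ENSMUST00000020991.14, plus strand of chromosome 12 from 3807030 to 3914443) in the standard and 30.3 and 28.6 CPM in the AHARIBO libraries. The groups overlapped, the log2 fold change was 0.04 with a standard error of 0.09, and its approximate 95% interval ran from -0.14 to 0.22 (adjusted p = 0.88, edgeR). Dnmt3b was read 2.69, 2.95 and 2.68 times as densely as Dnmt3a in the standard and 2.71 and 2.77 times in the AHARIBO libraries. The groups overlapped, and the log2 ratio differed by -0.02 (exact two-sided permutation test, p = 1, where the smallest possible is 0.1).

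Dnmt3a has a long and a short protein form, of which the short one, known from mESCs, starts within the gene. The first 20 codons of the long form, coded by the main transcript, and of the short form (ENSMUST00000172689.7) are shown because only reads ahead of the short form's start codon tell the forms apart. Capitals mark in-frame ATG codons.
Dnmt3a long form, codons 1 to 20: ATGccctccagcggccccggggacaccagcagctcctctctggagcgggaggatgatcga
Dnmt3a short form, codons 1 to 20: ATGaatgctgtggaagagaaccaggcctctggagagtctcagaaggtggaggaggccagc
All 2070 coding nt of the short form are the end of the coding sequence of the long form, whose first 657 nt the short form lacks. A partial transcript (ENSMUST00000172719.7) with 580 coding nt from the start of the long form, held 18, 19 and 12 reads in the standard and 14 and 24 reads in the AHARIBO libraries. On the short form, 234, 231 and 178 reads were counted in the standard and 302 and 247 in the AHARIBO libraries. Per kb of transcript, the partial transcript had 1.48 to 2.90 CPM and the short form 10.6 to 12.1 CPM, a 3.66-fold to 7.66-fold difference within single libraries. Reads were thus sparse at the start of the long form and dense over the part common to both forms, in all 5 libraries. The values of Dnmt3a above therefore describe mainly the common part.

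Dnmt3l, which has no catalytic activity of its own and stimulates Dnmt3a and Dnmt3b, had 131, 130.2 and 141 CPM on its main transcript (ENSMUST00000151242.7, plus strand of chromosome 10 from 78049959 to 78063616) in the standard libraries. The AHARIBO libraries gave 114 and 127 CPM, below all standard values. The log2 fold change was -0.15 with a standard error of 0.08 and did not pass the test (adjusted p = 0.29, edgeR), with an approximate 95% interval from -0.31 to 0.00. It was -0.08 without AHARIBO replicate 1, -0.23 without AHARIBO replicate 2 and -0.06 with duplicates kept. Both high-density genes also lost the most reads to duplicate removal. Dnmt3l lost 32.1%, 32.5% and 30.4% of its reads in the standard and 41.2% and 31.6% in the AHARIBO libraries. Uhrf1 lost 34.7%, 32.9% and 32.7% against 39.6% and 33.1%, and Tet1 10.0% to 12.5%. For both high-density genes the largest loss was in AHARIBO replicate 1, where their level was also lowest. Over all transcripts, 43.3% to 47.7% of reads had been removed. Whether reads carry molecular identifiers is not given in the sources used here. Without them, removal may take independent fragments of densely read genes.

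Tet1 was higher in AHARIBO RIBO-seq, with the smallest p of the 9 genes. Its main transcript (ENSMUST00000174189.1, minus strand of chromosome 10 from 62804577 to 62899118) has 6120 coding nt, the longest of the 9 genes. It had 83.6, 90.3 and 78.2 CPM in the standard and 125 and 111 CPM in the AHARIBO libraries, from 493 to 1423 reads per library. Both AHARIBO libraries lay above all standard libraries. The mean rose from 84.0 ± 6.05 CPM (SD, n = 3) to 118 ± 9.30 CPM (SD, n = 2), a 1.40-fold difference or 0.49 on the log2 scale, with a standard error of 0.08 (adjusted p = 6.3e-05, edgeR). The second transcript in level (ENSMUST00000050826.13), which lacks part of the main coding sequence, gave 0.51 (standard error 0.08, adjusted p = 2.7e-05, edgeR). Among all transcripts of the 9 genes, 2 of 56 protein-coding and 2 of 28 other transcripts were called, against 4.51% of all transcripts (2.27% higher and 2.24% lower, that is 1520 and 1501 transcripts, or 1978 and 1048 with library size in place of TMM). All 4 were of Tet1. The 2 others of these cover separate stretches of the gene, and each shares sequence, and therefore reads, with the main transcript. The call remained under each of the 15 other settings tried, with log2 fold changes from 0.40 to 0.57.

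Tet2, the other main Tet enzyme of mESCs, did not pass the test. Its main transcript (ENSMUST00000196398.4, minus strand of chromosome 3 from 133463839 to 133544368) had 72.5, 86.3 and 72.8 CPM in the standard and 96.6 and 70.3 CPM in the AHARIBO libraries. The 2 AHARIBO libraries were the highest and the lowest of all 5. The log2 fold change was 0.11 with a standard error of 0.09 (adjusted p = 0.56, edgeR). It was 0.32 without AHARIBO replicate 2 (adjusted p = 0.028) and -0.14 without AHARIBO replicate 1 (adjusted p = 0.69), so that the direction for Tet2 depends on a single library. Per kb of coding sequence, Tet2 was read 0.921, 1.02 and 0.989 times as densely as Tet1 in the standard libraries and 0.824 and 0.671 times in the AHARIBO libraries. These ratios did not overlap, and their log2 difference was -0.39 (exact two-sided permutation test, p = 0.1, the smallest possible, and 0.15 after adjustment over 3 ratios). The difference was -0.24 without AHARIBO replicate 2 and -0.54 without AHARIBO replicate 1. Per kb of transcript in place of coding sequence, Tet2 was the more densely read gene, with a mean log2 ratio of 0.39 to Tet1 over the libraries.

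Tet3, the Tet enzyme known from the zygote and from differentiated cells, was sparsely read. Its main transcript (ENSMUST00000089622.10, minus strand of chromosome 6 from 83362373 to 83441675) held 27, 33 and 25 reads in the standard and 53 and 60 reads in the AHARIBO libraries, or 3.02, 3.64 and 3.97 CPM against 4.64 and 5.99 CPM. Both AHARIBO values lay above all standard values. The log2 fold change of 0.59 was the largest of the 9, but its standard error was 0.20 and its adjusted p of 0.086 (edgeR) missed the threshold, with an approximate 95% interval from 0.19 to 0.99. Its second transcript in level (ENSMUST00000186548.6) gave 0.50 (standard error 0.22, adjusted p = 0.20, edgeR).

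Tdg, the glycosylase that follows the Tet enzymes, had 33.0, 36.9 and 35.9 CPM on its main transcript (ENSMUST00000151390.7, plus strand of chromosome 10 from 82629859 to 82650799) in the standard and 38.6 and 36.2 CPM in the AHARIBO libraries. The groups overlapped, and the log2 fold change was 0.09 with a standard error of 0.09 (adjusted p = 0.64, edgeR). It was 0.04 without standard replicate 1, 0.04 without AHARIBO replicate 1 and 0.13 without AHARIBO replicate 2. With duplicates kept it was 0.02, and on the second transcript in level (ENSMUST00000092266.10) 0.18. Of the windows of this transcript, 64.9% also occur in other genes, 59.2% in the pseudogene Tdg-ps, so that some of its reads cannot be assigned with certainty.

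The difference between the methods went with coding length over all genes, and the 9 genes are described against this background. Among 12277 genes with a complete coding sequence, Spearman's rho of log2 fold change and coding length was 0.281, and it was 0.536 among the 3685 of these with a mean of at least 20 CPM. These coefficients run across genes of the same 5 libraries and carry no p. The median log2 fold change was -0.09 for coding sequences under 1000 nt (3924 genes), 0.06 for 2000 to 3000 nt (1963 genes), 0.13 for 5000 to 7000 nt (326 genes) and 0.20 from 7000 nt upward (231 genes). In the bin of 5000 to 7000 nt, edgeR called 11.0% of genes higher and 0 lower (3 lower at an unadjusted p under 0.05), and 79.1% had a log2 fold change above 0. DESeq2 called 0 lower in this bin, but it gave an adjusted p to only part of the transcripts.

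Tet1, Tet2 and Tet3 all fall in that bin. Tet1 lay above 92.7% of the 193 genes whose coding length was within 10% of its own, which had a median of 0.13. Tet3 lay above 94.9% of 237 genes of like length (median 0.14) and Tet2 above 43.6% of 218 (median 0.14). Dnmt1, with 4863 coding nt, lay above only 23.3% of 245 genes of like length, whose median was 0.14, and Uhrf1 above 21.5% of 1037. Dnmt3a and Dnmt3b lay above 42.0% and 40.0% of their like, Dnmt3l above 27.4% and Tdg above 68.8%. The density of methionine codons ran from 1.26 per 100 codons in Tet3 to 2.85 in Tdg. The number of methionine codons ran from 7 in Dnmt3l to 34 in Tet2, with 32 in Tet1.

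**Figure D3:**
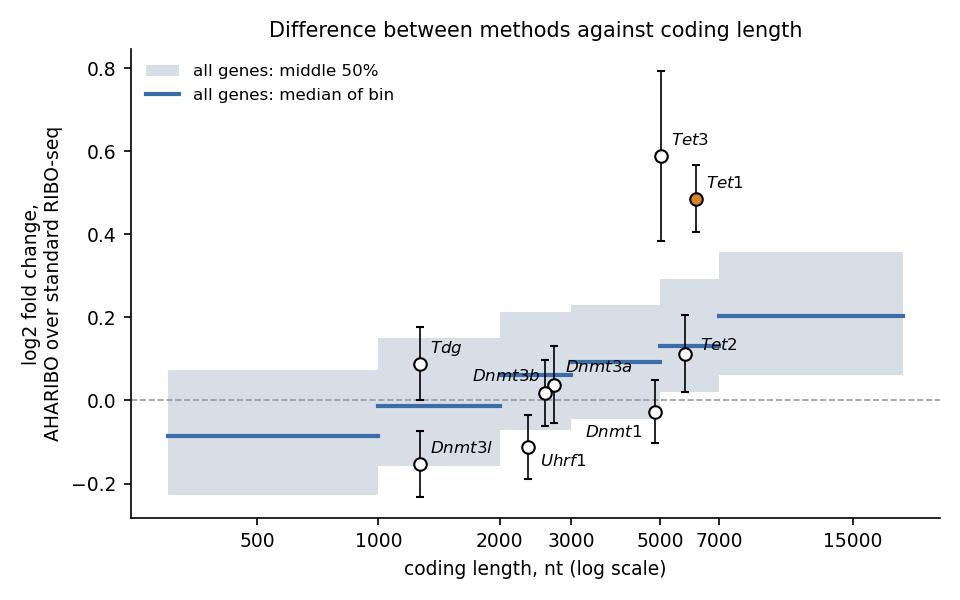
Log2 fold change of AHARIBO over standard RIBO-seq against coding length (log scale), with blue lines and grey boxes for the median and middle 50% of all genes in 6 bins (both outermost bins are open) and circles with standard errors for the 9 genes. The medians run from -0.09 to 0.20, Tet1 and Tet3 lie above the grey boxes, Tdg lies above its bin median, and the other 6 genes lie below theirs.

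Short annotated transcripts that overlap only the start or only the end of a gene gave a view of where along the transcript the methods differed. For each gene, a start-side transcript shares at least 60% of its windows of 30 nt with the main transcript and has its middle before 30% of the coding sequence (for Tet2 just ahead of its first base), and an end-side transcript has it in the last 30%, with at least 20 reads in every library. The coding part of such a transcript is under 50% of that of the main transcript, and an end-side transcript is shorter than 3200 nt. The start-side transcripts of Tet1 and Tet2 are coding over only 142 of 361 nt and 137 of 423 nt. Part of their reads may therefore lie outside coding sequence. Where several transcripts of a gene met this rule, the one that shares the largest part of its windows was taken. This rule was chosen after the data were seen, and a short transcript and its main transcript share reads. In all 6 genes with a start-side transcript, its log2 fold change was below that of the main transcript, with a median difference of -0.25 (from -0.40 to -0.03). In the 6 genes with an end-side transcript, 3 were below and the median difference was -0.01. With the most read transcript that meets the rule, 6 of 6 were below at the start (median -0.25) and 4 of 6 at the end (median -0.05). The difference between start and end was not tested.

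The Tet1 start shows the pattern in single libraries. Its start-side transcript (ENSMUST00000228901.1, 361 nt) overlaps the stretch printed here, the first 47 codons of the main transcript, and the bases just before it. Capitals mark in-frame ATG codons.
Tet1 main transcript, codons 1 to 47: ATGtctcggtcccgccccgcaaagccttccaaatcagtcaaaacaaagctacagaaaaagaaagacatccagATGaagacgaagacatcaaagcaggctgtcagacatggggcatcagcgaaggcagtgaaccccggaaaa
The start-side transcript of Tet1 held 75, 87 and 56 reads in the standard and 129 and 86 reads in the AHARIBO libraries. Relative to the main transcript, these were 10.1%, 10.6% and 11.4% in the standard and 9.07% and 7.71% in the AHARIBO libraries, so that the groups did not overlap. It differed by 0.16 between the methods on the log2 scale (standard error 0.14, adjusted p = 0.61, edgeR), against 0.49 for the main transcript and 0.55 (standard error 0.14, adjusted p = 0.015, edgeR) for the end-side transcript (ENSMUST00000173905.1). Other partial transcripts near the end of the coding sequence lay between these values, with 0.28 (standard error 0.11, adjusted p = 0.15, edgeR) for ENSMUST00000174121.1 and 0.35 (standard error 0.17, adjusted p = 0.25, edgeR) for ENSMUST00000173087.1.

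A transcript at the start of Dnmt1 (ENSMUST00000215545.1) held 13.4%, 12.3% and 13.6% of the reads of the main transcript in the standard and 11.0% and 11.0% in the AHARIBO libraries. Its log2 fold change was -0.27, but a transcript that overlaps the end of Dnmt1 (ENSMUST00000214964.1, 54.3% of its windows in the main transcript) was about as low at -0.25, so that start and end were not set apart in this gene. For Tet2, the start-side transcript (ENSMUST00000197118.4) held 12.5%, 8.95% and 9.15% of the main transcript's reads in the standard and 7.25% and 8.38% in the AHARIBO libraries, again without overlap. The end-side transcript of Tet2 (ENSMUST00000198974.1) was also lower, with 5.24% to 7.41% in standard and 4.35% to 5.11% in AHARIBO RIBO-seq, and its log2 fold change lay -0.34 from that of the main transcript. It held 34 to 48 reads per library. The most read end-side transcript of Tet2 (ENSMUST00000197211.1, 158 to 347 reads) gave 0.03 (standard error 0.10, adjusted p = 0.92, edgeR), against 0.11 for the main transcript. The result for the end of Tet2 thus depends on the transcript taken. For Dnmt3a, Uhrf1 and Tdg the shares of the start-side transcript overlapped between the methods. A lower share in both AHARIBO libraries, as in 3 of these 6 genes, was found for 33.9% of 679 other genes with a start-side transcript by annotation. Among these 679 other genes with a partial transcript that starts at the same first coding base and holds at most 30% of the coding length, 75.8% had a lower log2 fold change on it than on the main transcript, with a median difference of -0.12. Among 70 genes with such a transcript at the end, 42.9% were lower, with a median difference of 0.02. A lower share in both AHARIBO libraries was found for 8.57% of them, and for 1 of the 6 genes here (Tet2). This rule by annotation is not the rule used for the 6 genes, so that the shares are not like for like. With the 9 genes included, 682 genes met it at the start and the same 70 at the end. No end-side transcript of the 9 genes met it.

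**Figure D4:**
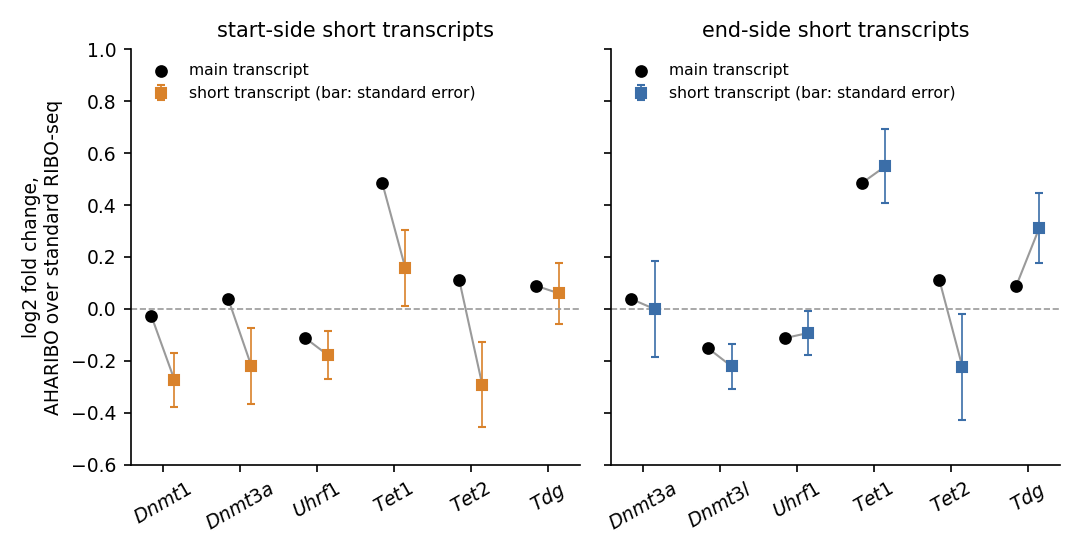
Log2 fold change of AHARIBO over standard RIBO-seq on the main transcript (black circles) and on a short transcript (squares with standard errors) at the start (left) or at the end (right) of the same gene. At the start all 6 squares lie below their circles, and at the end 3 of 6 do.

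Genes that act with the 9 were read in 5 lists of 45 genes, of which 43 were tested. The edgeR test called 0 of the 43 higher with AHARIBO and 1 lower, against 2.59% and 2.53% of all genes. At an unadjusted p under 0.05 it had 6 higher and 8 lower, against 19.4% of all genes in either direction. DESeq2 called 0 of these genes, but it gave an adjusted p to only 15035 of the 66972 transcripts. Genes of the lists without one could not be called. The gene called was Cxxc5, a CXXC zinc finger protein that regulates Tet2, with 20.1 ± 2.86 CPM (SD, n = 3) in standard and 15.4 ± 1.83 CPM (SD, n = 2) in AHARIBO RIBO-seq, a difference of -0.41 on the log2 scale with a standard error of 0.12 (adjusted p = 0.028, edgeR).

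Of the list of methyl-CpG readers, proteins known from binding methylated DNA and their relatives, 0 of 9 were called (median log2 fold change -0.05). Mbd3, the subunit of the NuRD complex, was the most dense with 57.0 CPM per kb of coding sequence, and Zbtb4 the least with 0.300. Of the partners of methylation maintenance and imprint protection, 0 of 11 were called (median -0.06). Trim28, the corepressor bound by KRAB zinc finger proteins, reached 239 CPM per kb, and Dppa3, which protects the maternal genome from demethylation, had 2.42. Of the Tet partners and the enzymes that supply or use their cofactor 2-oxoglutarate, 8 of 9 were tested and 1 was called (median 0.06), with Nanog highest at 154 CPM per kb and Cxxc4, not tested, lowest at 0.271.

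In base excision repair, which fills the gap that Tdg leaves, 0 of 10 genes were called (median -0.10). Parp1, a sensor of DNA breaks, was highest at 66.1 CPM per kb, and the glycosylase Neil2 lowest at 2.40. Of the methyl donor cycle, which makes S-adenosylmethionine and clears its product, 5 of 6 genes were tested and 0 were called (median 0.02). Mat2a, which makes S-adenosylmethionine, had 107 CPM per kb, and Nnmt, not tested, was lowest at 0.028. The value of Mat2a lay above the 5-library mean of Dnmt3l (101) but inside its range (90.0 to 111).

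The genes whose levels followed that of Tet1 most closely over the 5 libraries were the kinase gene Srpk1, Baz2a and Cecr2, with Pearson's r of log2(CPM + 1) of 0.999, 0.999 and 0.998. With 5 libraries such values are common, since 190 of 3691 genes with a mean of at least 20 CPM had an r over 0.95, and they are given as a description. Their log2 fold changes were 0.22, 0.20 and 0.26. Next came Ktn1, Mdn1 and Cic, with log2 fold changes of 0.51, 0.25 and 0.35. Since the level of Tet1 differs between the methods, genes chosen for following it differ too, and nothing is read from their values.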

How the data were processed

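The deposited table gives raw read counts for each transcript, as the authors made them, once without duplicates (used here) and once with them (an alternative), beside transcript lengths. Per the labels and the methods, the authors trimmed reads with Trimmomatic 0.36, discarded reads under 20 nt and those matching rRNA or tRNA, aligned the rest with STAR to Gencode M17 transcripts (GRCm38.p6) and removed antisense reads. STAR ran at its defaults per the methods. How a read that matches several transcripts was then counted is not given in the sources used here, and transcripts of a gene share reads. Of the columns with values of single samples, 0 were left unused.

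CPM used TMM factors over all transcripts. Transcripts reaching 1 CPM in any library were tested with edgeR 4.0.16 (R 4.3.3), quasi-likelihood, no covariates, Benjamini-Hochberg over all transcripts, threshold 0.05. DESeq2 1.42.0 was an alternative. Standard errors are the size of the log2 value divided by the root of F, and approximate 95% intervals are 1.96 of them to each side. Names, coordinates and sequences came from Gencode M21 (GRCm38), in which 99.8% of transcripts matched by identifier. Coding features were read from transcript sequences. Ratios were compared by exact permutation of libraries (10 splits).

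On simulated data (65212 transcripts, 200 changed), edgeR recovered 77% of 2-fold and 98% of 4-fold changes and called 6 unchanged transcripts. DESeq2 recovered 56% and 90% and called 1. The simulation drew each transcript independently at a single fixed dispersion and changed only transcripts above a minimum mean count. Changes under 2-fold were not simulated. Real transcripts of a gene share reads, so that these rates need not hold for the data. The floor of 3 counts covers counting error only.

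All 9 members are named by rule, other transcripts of a member where called or second in level, and, from each list, genes called and the highest and lowest in level. Some transcripts compared as annotated forms of a gene fall outside this rule. Transcripts shown for starts and ends, and the genes of like coding length, were chosen after their values were seen. Members and lists were chosen with earlier results of these data known. The labels do not tie replicate numbers to a shared lysate, so they were not used as pairs. The correlation of deviations was 0.04 and -0.09 for numbers 1 and 2, which says little with 2 AHARIBO libraries, whose deviations mirror each other.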

Additional observations from a re-analysis of the deposited data

How the results depend on the processing

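Tet1 was the single gene of the 9 called under every alternative run (test, normalization, filter, duplicates, replicate block, 1 transcript per gene, each library left out), except that 2 were called, Tet1 and Tet2, without AHARIBO replicate 2, so that the count over left-out libraries ranged from 1 to 2. With the replicate block, Tet1 gave 0.44 (adjusted p = 0.0059, edgeR) and the transcripts called higher and lower numbered 971 and 821 against 1520 and 1501. The cause was not tested. Counts over all transcripts moved with other settings too. DESeq2 called 133 higher and 175 lower, from 15035 transcripts with an adjusted p against 66972 in the main test. Library size in place of TMM gave 1978 higher and 1048 lower, and duplicates kept gave 1160 higher and 910 lower. With 1 transcript per gene, 410 were higher and 355 lower from 18538 tested. Leaving out each library gave 355 to 1857 higher and 155 to 1972 lower, with 719 and 454 without standard replicate 1, 926 and 889 without standard replicate 3 and the fewest without AHARIBO replicate 1.

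Directions near 0 turned for Dnmt1 with library size in place of TMM (0.0080) and on its second transcript (0.00027), for Dnmt3a on the mean over protein-coding transcripts (-0.043), and for Dnmt3b with duplicates kept (-0.0012). Left-out libraries turned Dnmt3a (-0.0062 to 0.081), Dnmt3b (-0.0084 to 0.044) and Tet2 (-0.14 to 0.32). The Dnmt3b to Dnmt3a ratio turned with the mean over transcripts (0.059) and ranged from -0.039 to 0.030 over left-out libraries. Per kb of transcript, Tet2 passed Tet1, and with duplicates kept Tdg passed Dnmt3b, so that 7 of 9 genes kept their rank. Without an AHARIBO library, the remaining one is assumed to vary like the standard libraries. Depth limits Tet3 most, with 25 to 60 reads per library. DESeq2 gave Tet3 no adjusted p, so that 8 of the 9 genes were tested there. In alternatives added after the data were seen (each library left out, duplicates kept), the start-side transcript was below the main one in 5 or 6 of 6 genes and the end-side transcript in 2 to 4 of 6, rho with coding length over all genes was 0.202 to 0.294, and Tet1 lay above 89.1% to 94.8% of genes of like length.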
